A study of Homo sapiens with 8 samples.

Results

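E-cadherin and the genes that set or read out the epithelial-mesenchymal state were followed in 2 colorectal cancer lines. The 10 members were taken by symbol from the 62649 genes of the count files: the cadherins CDH1 and CDH2, plakoglobin (JUP), EPCAM, the splicing regulators ESRP1 and ESRP2, the transcription factors GRHL2, ZEB1 and ZEB2, and vimentin (VIM). All 10 were listed, and 7 passed the filter on low counts and were tested among 17671 genes. CDH2, ZEB2 and GRHL2 did not pass and are described by their counts.

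Poly-A RNA was sequenced from SW620 and SW480 cells, established colorectal adenocarcinoma lines that were derived from a lymph node metastasis and from the primary tumour of 1 patient. The 8 libraries formed 4 groups of 2: SW620 with caffeine, SW620 control, SW480 with caffeine and SW480 control. Per the labels every group, the controls included, carried a PSMB8-mCherry fusion of an immunoproteasome subunit, so that no unmodified cells were sequenced, and whether a line was 1 clone is not given in the sources used here. Exposures of SW620 cells are on record in the protocol, a series of doses between 30 and 500 µM lasting 72 hours, and 125 µM kept up over 28 days. Neither is tied to the sequenced libraries, and no dose is given for SW480. They call the replicates biological, without naming separate cultures or days, so the p-values measure the spread between these libraries.

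In epithelial cells E-cadherin binds neighbouring cells from outside and catenins from inside, and plakoglobin serves both this junction and the desmosome. ZEB1 and ZEB2 repress E-cadherin through E-box sequences and are themselves held down by the miR-200 family, while GRHL2 and OVOL factors oppose ZEB1. ESRP1 and ESRP2 direct epithelial splicing of transcripts such as FGFR2 and CD44, and vimentin and N-cadherin (CDH2) are the usual mesenchymal readouts.

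Reads assigned to genes numbered 15760259 to 23269315 per library. In SW480 caffeine replicate 2, mitochondrial genes took 1.63% of the reads, and in the remaining 7 libraries between 4.38% and 6.16%. All 10 colorectal epithelial markers had a count in at least 1 group. Their summed level was 11975 to 13349 CPM (reads of a gene scaled to library size, with TMM factors) in SW620 with caffeine and 9811 to 9892 CPM in SW620 control. It was 6406 to 6716 CPM in SW480 with caffeine and 4460 to 5845 CPM in SW480 control, where KRT20 and CEACAM5 were at 0. The 7 leukocyte markers summed to at most 4.49 CPM in any library. The 8 fibroblast markers summed to 37.8 to 48.6 CPM in SW620 libraries and 5.92 to 7.66 CPM in SW480 libraries, and COL3A1 was at 0 in every library. The 6 endothelial markers summed to 9.72 to 16.1 CPM in SW620 and to 1.42 to 2.33 CPM in SW480. In bulk RNA, fewer cells that express a gene and less of its RNA per cell cannot be told apart.

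Among the members, the untreated lines differed most in E-cadherin itself. CDH1 had 3794 and 3968 reads in the SW620 control libraries, against 15 and 12 reads in the SW480 control libraries. That was 192 and 199 CPM in SW620 control and 0.908 and 0.700 CPM in SW480 control, so the groups lay far apart and SW480 cells held close to no CDH1 mRNA. The log2 fold change was 7.92 ± 0.21 (SE), or 242-fold (edgeR quasi-likelihood test, Benjamini-Hochberg adjusted p = 1.12e-14). CDH1 lies on chromosome 16 at 68737225 to 68835548 (GRCh38, plus strand) and has 20 exon blocks in GENCODE 29.

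**Figure D1:**
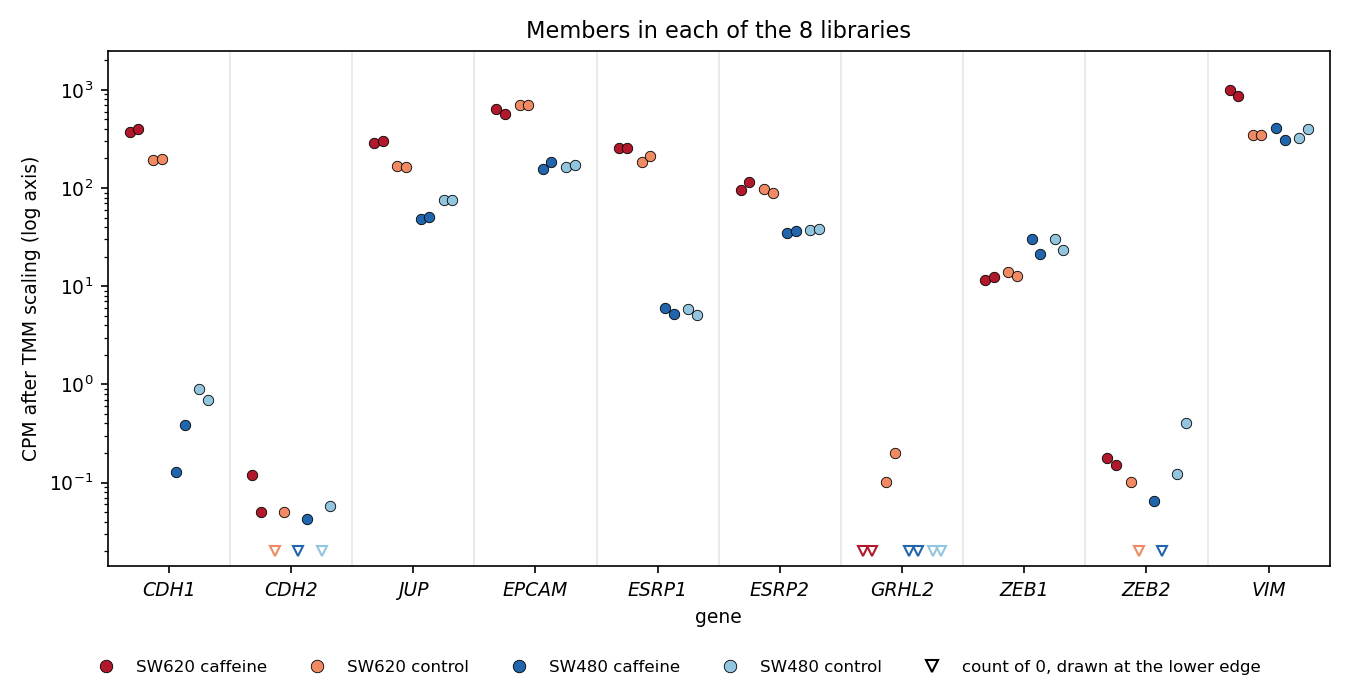
CPM after TMM scaling on a log axis for the 10 members, 1 point per library, coloured by group; open triangles at the lower edge are counts of 0. CDH1 and ESRP1 separate the SW620 from the SW480 libraries by the widest gaps, VIM stands higher in the 2 SW620 caffeine libraries alone, and CDH2, ZEB2 and GRHL2 stay at or under 0.409 CPM in all 8.

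The second cadherin of the classical switch gave no counterpart to this. CDH2, which encodes N-cadherin, had 2 and 1 reads in SW620 with caffeine, 0 and 1 in SW620 control, 0 and 1 in SW480 with caffeine and 0 and 1 in SW480 control. Between 0 and 2 reads per library lie under the 3 counts that a count of 0 allows, so no difference in CDH2 was detectable at this depth. SW480 control thus had 15 and 12 CDH1 reads beside 0 and 1 CDH2 reads.

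Of the other cadherins and their relatives, 7 of 13 were tested, 3 were higher in SW620 control and 4 were lower. Among all tested genes 33% were higher and 32.6% lower. CDH17, liver-intestine cadherin, averaged 44.2 ± 2.55 CPM in SW620 control and 0.565 ± 0.0564 CPM in SW480 control (SD, n = 2 each; log2 6.27 ± 0.23, edgeR adjusted p = 5.40e-13). CDH11, a cadherin of mesenchymal cells, had 1 read over both SW620 control libraries and 150 reads over both SW480 control libraries, a ratio of 177 towards SW480 with a counting interval of 31.3 to 7037. CDH24 was lower (log2 -1.17 ± 0.16), with 7.20 ± 0.690 CPM in SW620 control and 16.2 ± 1.67 CPM in SW480 control (edgeR adjusted p = 7.96e-06). CDH3, P-cadherin, is separated from CDH1 by 14.6 kb and ran the other way from it, with 0.0506 and 0.0501 CPM in SW620 control and 1.63 and 1.11 CPM in SW480 control. These are 2 reads against 46 reads, a ratio of 27.1 towards SW480 with a counting interval of 7.10 to 231.

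The neighbourhood of CDH1 was examined after these values were seen. Within 1 Mb of CDH1, 44 other genes were tested, of which 34 were higher and 5 lower in SW620 control, with a median log2 difference of 0.88. Over all 831 tested genes of chromosome 16, 391 were higher and 147 lower, with a median of 0.41. ESRP2 is one of these neighbours, 499 kb from CDH1. CDH3 and ZFP90 (3.78 CPM in SW620 control, 18.6 CPM in SW480 control) were among the 5 lower neighbours. Copy number was not measured, and its part in these differences was not tested. FTLP14, a pseudogene inside the CDH1 locus, shared the direction with 0.427 CPM in SW620 control and 0 CPM in SW480 control.

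**Figure D2:**
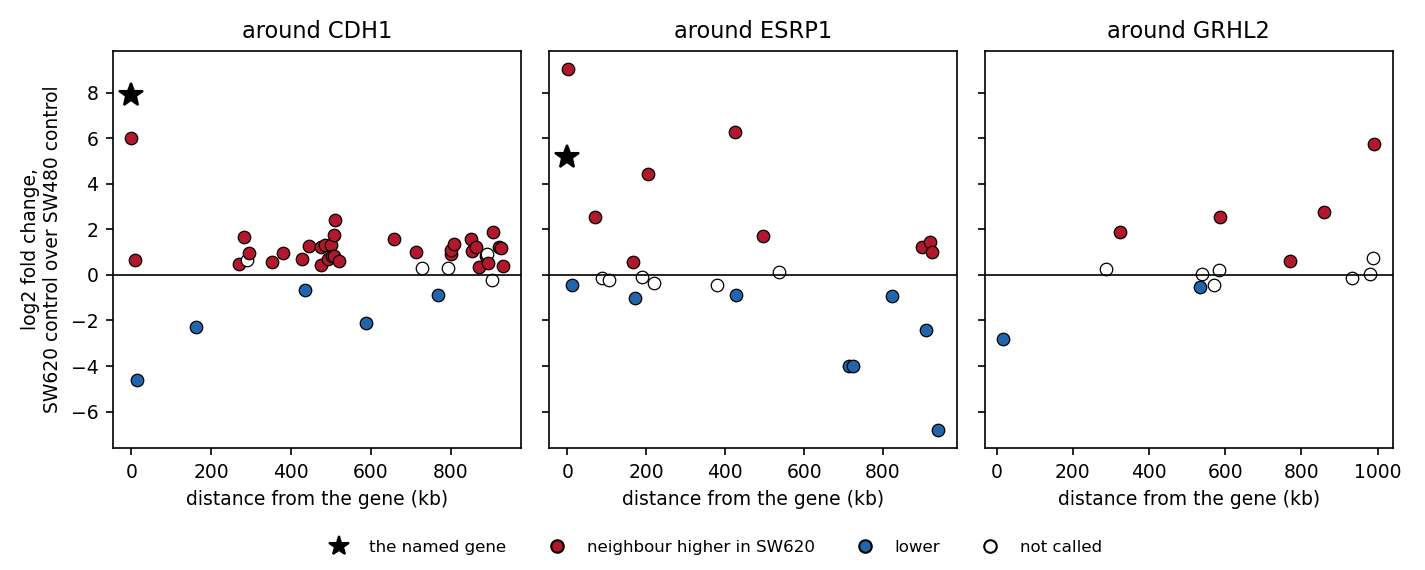
Log2 fold change of SW620 control over SW480 control for each tested gene within 1 Mb of CDH1, ESRP1 or GRHL2, plotted by its distance from that gene in kb; stars are CDH1 and ESRP1, and GRHL2 was under the filter and has no star. Of the 44 neighbours of CDH1, 34 are higher in SW620, most by far less than CDH1.

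Of the 7 members tested, 5 were higher and 1 was lower in SW620 control, where 65.6% of all tested genes were called (33% higher and 32.6% lower). The lines thus differ at most genes, and a count of 6 called members is above that share by little. The members' median log2 difference was 1.30, beside 0.03 over all tested genes.

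The adhesion members followed CDH1 at smaller size. JUP, plakoglobin, had 168 and 165 CPM in SW620 control and 76.0 and 75.6 CPM in SW480 control. The groups did not overlap (log2 1.14 ± 0.11, 2.20-fold, edgeR adjusted p = 1.53e-07). EPCAM, the epithelial cell adhesion molecule, had 696 and 705 CPM in SW620 control and 163 and 170.5 CPM in SW480 control. It was 4.20-fold higher in SW620 (log2 2.07 ± 0.13, edgeR adjusted p = 2.40e-10), and in SW480 control, where CDH1 was under 1 CPM, it still had 167 ± 5.08 CPM (SD, n = 2).

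The splicing members separated the lines unequally. ESRP1 had 184.5 and 211 CPM in SW620 control and 5.87 and 5.14 CPM in SW480 control, a 35.9-fold difference with no overlap (log2 5.17 ± 0.16, edgeR adjusted p = 5.74e-14). ESRP2, its paralogue, had 96.9 and 88.95 CPM in SW620 control and 37.1 and 38.4 CPM in SW480 control (log2 1.30 ± 0.13, 2.46-fold, edgeR adjusted p = 2.09e-07). SW480 cells thus kept ESRP2 while holding little ESRP1. Within a library there were 1.90 and 2.37 ESRP1 reads per ESRP2 read in SW620 control, against 0.158 and 0.134 in SW480 control. Of ESRP2's exon bases, 149 are shared with NFATC3 on the opposite strand, which had 450 to 1592 reads per library, and the strand setting of the counting is not given in the sources used here.

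ZEB1 ran opposite to the epithelial members. It had 13.9 and 12.6 CPM in SW620 control and 30.2 and 23.4 CPM in SW480 control, so that both SW620 libraries lay under both SW480 libraries. ZEB1 was 2.02-fold lower in SW620 (log2 -1.02 ± 0.18, edgeR adjusted p = 8.86e-05). ZEB1-AS1 shares 366 exon bases with it on the opposite strand and had 73 to 262 reads per library. ZEB2 had 3 and 3 reads in SW620 with caffeine, 2 and 0 in SW620 control, 1 and 0 in SW480 with caffeine and 2 and 7 in SW480 control. Summed over 2 libraries, that is 2 reads in SW620 control against 9 in SW480 control, at most 0.182 CPM and 0.508 CPM at the upper end of the exact 95% Poisson intervals, which cover counting error only, and the ratio was 5.31 towards SW480 with a counting interval of 1.10 to 50.5. ZEB1 was thus the only ZEB factor with more than 7 reads in any library.

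GRHL2 was nearly silent in both lines. Its counts were 0 and 0 in SW620 with caffeine, 2 and 4 in SW620 control, and 0 in all 4 SW480 libraries. The exact upper limits for the groups at 0 were 0.101 CPM in SW620 with caffeine, 0.0945 CPM in SW480 with caffeine and 0.110 CPM in SW480 control. The 6 reads of SW620 control against 0 of SW480 control were at least 1.69-fold higher, with the floor at 3 counts over the group. GRHL2 lies on chromosome 8 at 101492432 to 101669726 (GRCh38), and 14 genes within 1 Mb of it passed the filter, 5 of them higher and 2 lower in SW620 control. SW620 cells thus had high CDH1, EPCAM and ESRP1 mRNA with GRHL2 at 0.200 CPM or less per library.

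VIM did not separate the untreated lines. It had 343 and 347 CPM in SW620 control and 322 and 396 CPM in SW480 control, and the SW620 values lay between the SW480 values (log2 -0.06 ± 0.15, edgeR adjusted p = 0.749). SW620 control cells therefore held both abundant CDH1 and abundant VIM mRNA. They had 0.560 and 0.572 CDH1 reads per VIM read, against 0.00282 and 0.00177 in SW480 control. VIM-AS1 shares 641 exon bases with VIM on the opposite strand and had 17 to 49 reads per library.

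**Figure D3:**
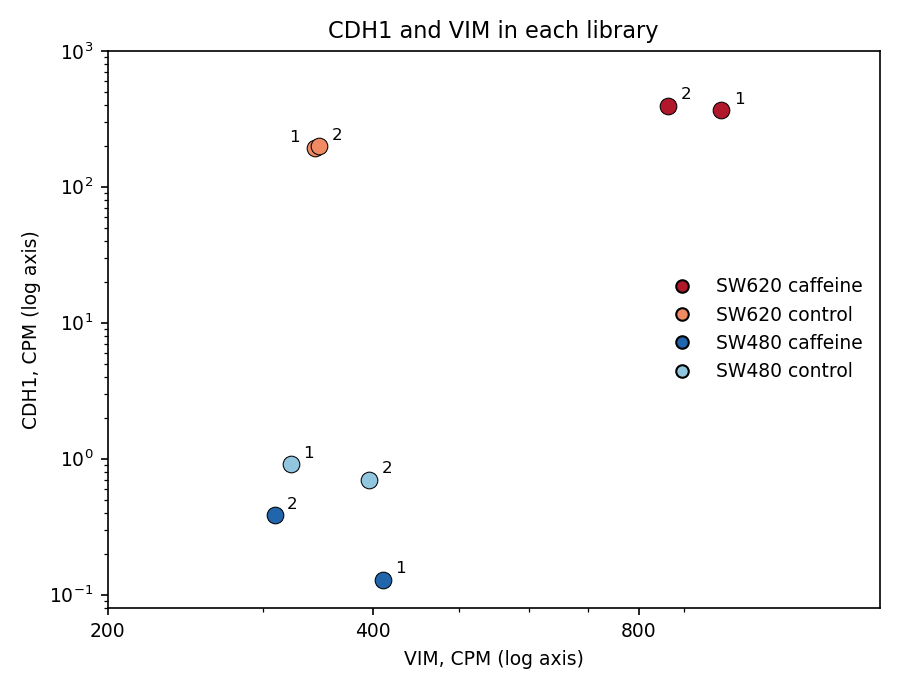
CPM of CDH1 against CPM of VIM in each library, both on log axes; numbers are replicate numbers. The SW480 libraries sit under 1 CPM of CDH1 at 309 to 410 CPM of VIM, and the SW620 caffeine libraries lie above and to the right of the SW620 controls.

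Per kilobase of merged exons, the order of the members in SW620 control was EPCAM at 278 ± 2.72 CPM per kb, VIM at 66.9 ± 0.584, ESRP1 at 40.5 ± 3.798, JUP at 33.7 ± 0.555, CDH1 at 31.6 ± 0.786, ESRP2 at 16.7 ± 1.01 and ZEB1 at 1.53 ± 0.101 CPM per kb (SD, n = 2). In SW480 control it was VIM at 69.6 ± 10.1 and EPCAM at 66.3 ± 2.02, which did not differ beyond their SD, then JUP at 15.3 ± 0.0587, ESRP2 at 6.79 ± 0.167, ZEB1 at 3.10 ± 0.555, ESRP1 at 1.13 ± 0.106 and CDH1 at 0.130 ± 0.0237 CPM per kb. CDH1 was thus above ZEB1 in SW620 and under it in SW480.

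The genes around the members gave a mixed picture of the state of SW620. Of the other transcription factors that drive the mesenchymal transition, 6 of 12 were tested, 4 were higher in SW620 control and 2 were lower. The shares for all tested genes were 33% higher and 32.6% lower. SNAI1 averaged 29.2 ± 0.592 CPM in SW620 control and 12.9 ± 0.538 CPM in SW480 control (log2 1.18 ± 0.14, edgeR adjusted p = 1.49e-06), and SOX4 averaged 387 ± 17.96 CPM and 33.9 ± 4.26 CPM in those groups (log2 3.51 ± 0.13). SNAI1 is an E-box repressor of E-cadherin and SOX4 an inducer of the transition, and both were higher in the line with high CDH1. PRRX1, a homeobox inducer, had 1 read over both SW620 control libraries against 594 reads in SW480 control, a ratio of 701 towards SW480 with a counting interval of 125 to 27730. TWIST1 was at 0 in all 8 libraries.

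Epithelial transcription factors were mostly higher in SW620 control, 7 of the 10 tested, with 2 lower. All tested genes gave 33% higher and 32.6% lower. EHF, an ETS factor of epithelial cells, averaged 216 ± 5.43 CPM in SW620 control and 0.239 ± 0.0901 CPM in SW480 control (log2 9.79 ± 0.23, edgeR adjusted p = 6.17e-15), a wider gap than that of CDH1. ELF3, another ETS factor, averaged 102 ± 3.05 CPM in SW620 control and 16.4 ± 0.836 CPM in SW480 control (log2 2.64 ± 0.13). FOXA2 averaged 125 ± 11.6 CPM and 24.4 ± 0.368 CPM in those groups (log2 2.36 ± 0.14). FOXA1 was one of the 2 lower ones, with 0 reads in SW620 control and 49 reads in SW480 control. With 3 counts taken for the 0, that is 19.3-fold lower, leaving out the counting error of the 49 reads.

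**Figure D4:**
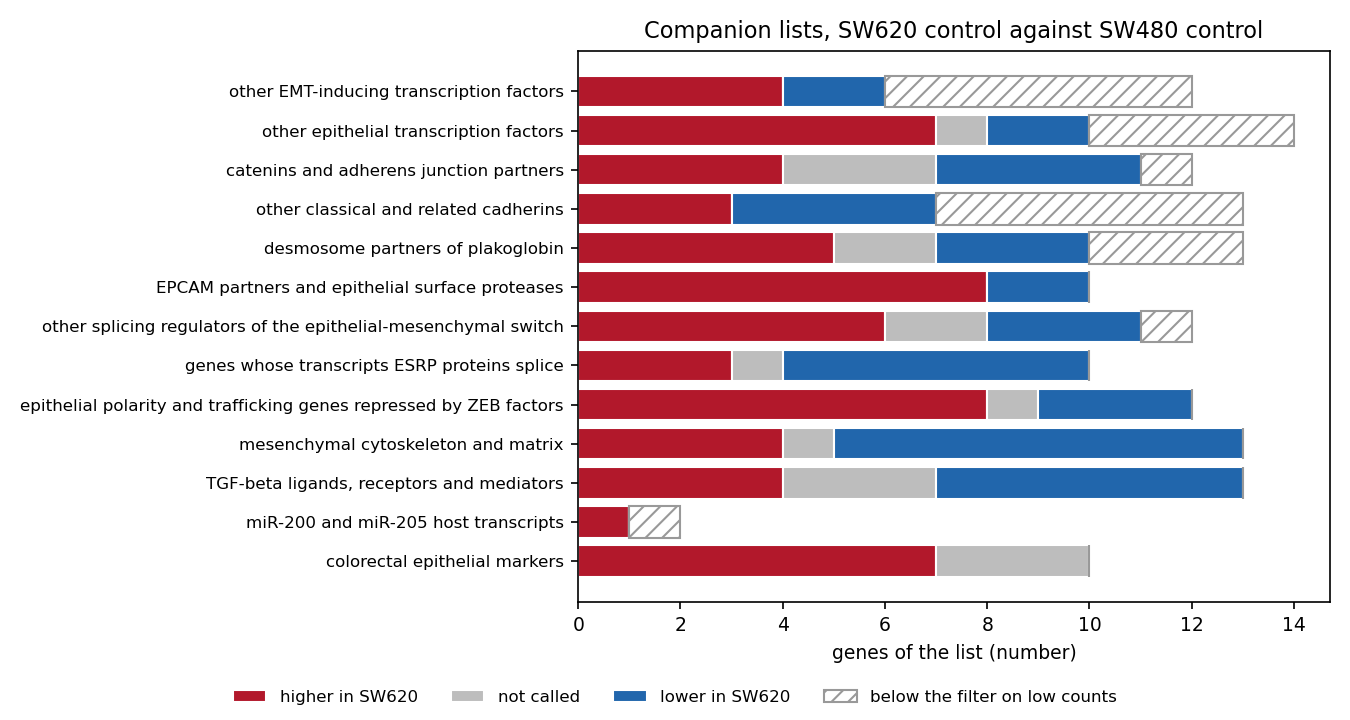
Number of genes in each companion list that were higher in SW620 control, not called, lower in SW620 control, or below the filter on low counts. Of the junction lists, the catenins have 4 higher and 4 lower and the desmosome partners 5 higher and 3 lower. The polarity and trafficking genes have 8 higher and 3 lower, the EPCAM partners 8 higher and 2 lower, and the mesenchymal cytoskeleton and matrix genes 4 higher and 8 lower, beside 33% higher and 32.6% lower over all tested genes.

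Junction partners differed between the lines in both directions. Among catenins and adherens junction partners 4 of 11 tested genes were higher and 4 lower in SW620 control, with a median of -0.26. Both counts are near the shares over all tested genes, 33% higher and 32.6% lower, and do not set these genes apart. PLEKHA7, which links p120-catenin to microtubules, averaged 47.4 ± 2.68 CPM in SW620 control and 10.9 ± 0.992 CPM in SW480 control (log2 2.12 ± 0.15, edgeR adjusted p = 1.85e-09). Vinculin (VCL) averaged 276 ± 19.8 CPM and 98.2 ± 10.8 CPM (log2 1.49 ± 0.13), and NECTIN1 averaged 102 ± 5.22 CPM and 193 ± 19.2 CPM (log2 -0.92 ± 0.13). Of plakoglobin's desmosome partners 5 of 10 tested were higher, among them PERP (log2 1.42 ± 0.12), PKP2 (1.02 ± 0.12) and DSC2 (1.60 ± 0.19), and 3 were lower. Desmoplakin (DSP), the main cytoplasmic partner, had 509 and 508 CPM in SW620 control and 610 and 432 CPM in SW480 control, with the SW620 values inside the SW480 range.

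EPCAM's partners and the epithelial surface proteases were higher in 8 of 10 cases and lower in 2. The shares over all tested genes were 33% higher and 32.6% lower. CD24 averaged 132 ± 4.65 CPM in SW620 control and 0.535 ± 0.0136 CPM in SW480 control (log2 7.93 ± 0.22, edgeR adjusted p = 2.57e-14). TSPAN8, a tetraspanin, averaged 31.7 ± 3.31 CPM and 1.42 ± 0.468 CPM in those groups (log2 4.47 ± 0.22). PRSS8, the protease prostasin, had 285 reads over both SW620 control libraries against 1 read in SW480 control, a ratio of 242 with a counting interval of 43.0 to 9573.

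Among genes whose transcripts the ESRP proteins splice, 3 of 10 were higher and 6 lower in SW620 control. For all tested genes the shares were 33% and 32.6%. CD44, a hyaluronan receptor with epithelial and mesenchymal isoforms, averaged 0.252 ± 0.00173 CPM in SW620 control and 381 ± 17.1 CPM in SW480 control (log2 -10.53 ± 0.23, edgeR adjusted p = 3.73e-15). FGFR2 had 1 read over both SW620 control libraries and 223 reads in SW480 control, a ratio of 263 towards SW480 with a counting interval of 46.7 to 10439. The line with high ESRP1 thus had little mRNA of these classical ESRP substrates, and gene counts do not resolve isoforms. RBM47, another epithelial splicing regulator, averaged 43.6 ± 8.03 CPM in SW620 control and 0.299 ± 0.176 CPM in SW480 control (log2 7.17 ± 0.28).

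Polarity and trafficking genes that ZEB factors are known to repress were higher in 8 of 12 cases and lower in 3. TMC4 averaged 52.2 ± 0.750 CPM in SW620 control and 1.85 ± 0.551 CPM in SW480 control (log2 4.82 ± 0.20). MARVELD3, a tight junction protein, averaged 27.3 ± 1.42 CPM and 0.828 ± 0.315 CPM (log2 5.03 ± 0.24), and LLGL2, a basolateral polarity protein, averaged 235 ± 14.4 CPM and 41.9 ± 5.36 CPM (log2 2.49 ± 0.14). MAL2, PARD6B and PRSS22 were the 3 lower ones. These lists were drawn up with earlier results of these data known, and 33% of all tested genes were higher in SW620 control.

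The host transcript of miR-200c and miR-141, MIR200CHG, went with CDH1 and against ZEB1. It had 2.78 and 2.66 CPM in SW620 control, against 0.121 and 0 CPM in SW480 control, 108 reads over both SW620 libraries against 2 reads (ratio 45.8, counting interval 12.4 to 383). The mature miRNAs are not captured in poly-A libraries and were not measured. Their sequences (RefSeq, GRCh38.p14) and ZEB1 sites are shown because ZEB1 is their best known target; capitals mark the seed, bases 2 to 8 of the miRNA, and the matching letters of the site in DNA letters.

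hsa-miR-200c-3p: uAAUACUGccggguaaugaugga
ZEB1 site for miR-200c-3p: attgttttatcttatCAGTATT
hsa-miR-141-3p: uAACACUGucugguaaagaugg
ZEB1 site for miR-141-3p: caaaatcatcagaatCAGTGTT

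The miRNAs lie at chr12:6963742-6963764 and chr12:6964155-6964176 and the sites at chr10:31527618-31527639 and chr10:31528031-31528052, all on the plus strand of GRCh38. The longest annotated ZEB1 3′ UTR (GENCODE 29, 2549 bases) holds CAGTATT 6 times and CAGTGTT 3 times on the transcript strand, and these motifs do not overlap each other. CAGTATT occurred in 26.2% and CAGTGTT in 29.5% of 2355 other 3′ UTRs of like length (within 20%), and none of those held CAGTATT 6 or more times. ZEB2's 3′ UTR (5370 bases) holds 5 and 4 such matches, but ZEB2 had hardly any reads in either line.

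The line differences were also measured in the 4 caffeine libraries, which share no library with the controls. All 7 tested members were called there, 6 higher and 1 lower in SW620 with caffeine, where 66.3% of all tested genes were called (32.9% higher, 33.4% lower). CDH1 had 368 and 396 CPM in SW620 with caffeine and 0.129 and 0.383 CPM in SW480 with caffeine (log2 10.38 ± 0.23, edgeR adjusted p = 3.43e-15). ESRP1, JUP, EPCAM and ESRP2 were higher by 5.52 ± 0.16, 2.58 ± 0.12, 1.82 ± 0.12 and 1.58 ± 0.13 on the log2 scale, and ZEB1 was lower (log2 -1.08 ± 0.18). VIM joined the higher members under caffeine, with 992 and 864 CPM in SW620 and 410 and 309 CPM in SW480 (log2 1.37 ± 0.15, edgeR adjusted p = 4.34e-07).

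In SW620, E-cadherin, plakoglobin and vimentin mRNA rose together with caffeine. Of the 7 tested members 4 rose and none fell, where 14.4% of all tested genes were called (8.1% higher, 6.25% lower). The members' median log2 change was 0.37, beside -0.01 over all tested genes. These responses use the SW620 controls that also enter the line comparison.

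VIM showed the largest response among the members. It had 992 and 864 CPM in SW620 with caffeine and 343 and 347 CPM in SW620 control, with no overlap (2.69-fold, log2 1.43 ± 0.15, edgeR adjusted p = 9.41e-06). CDH1 had 368 and 396 CPM with caffeine and 192 and 199 CPM in control (1.95-fold, log2 0.97 ± 0.13, edgeR adjusted p = 8.15e-05). JUP had 289 and 305 CPM with caffeine and 168 and 165 CPM in control (1.78-fold, log2 0.83 ± 0.11, edgeR adjusted p = 9.62e-05). In all 3 genes both caffeine libraries stood above both controls, which groups of 2 libraries can give without a change. How many of all tested genes separated in this way was not counted. The calls of the 3 genes held under all 14 alternatives of the analysis. An epithelial junction pair and a mesenchymal filament gene thus rose in the same libraries, and because VIM rose more, CDH1 reads per VIM read were 0.371 and 0.458 with caffeine against 0.560 and 0.572 in control.

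The remaining members moved little in SW620. ESRP1 had 254 and 257 CPM with caffeine and 184.5 and 211 CPM in control (log2 0.37 ± 0.12, edgeR adjusted p = 0.0490). This call sits at the threshold and was lost with the replicate block (adjusted p = 0.0735), without the filter on low counts (0.0539) and without any 1 of the 4 SW620 libraries (0.146 to 0.432). ESRP2 had 95.7 and 116 CPM with caffeine and 96.9 and 88.95 CPM in control, and EPCAM had 633 and 573 CPM with caffeine and 696 and 705 CPM in control. ZEB1 had 11.7 and 12.5 CPM with caffeine and 13.9 and 12.6 CPM in control. None of these 3 passed the test, at adjusted p of 0.372, 0.257 and 0.692. The rise of CDH1 in SW620 was thus measured beside a ZEB1 change of -0.13 ± 0.18 on the log2 scale, which did not pass.

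In SW480 only JUP was called, and it fell. Of 7 tested members 1 was called, where 3.6% of all tested genes were called (1.67% higher, 1.93% lower). JUP had 48.9 and 50.7 CPM in SW480 with caffeine and 76.0 and 75.6 CPM in SW480 control, with no overlap (log2 -0.61 ± 0.11, edgeR adjusted p = 0.0101). Without SW480 caffeine replicate 2, the library with few mitochondrial reads, the change was -0.63 ± 0.13 at an adjusted p of 0.0784 and was no longer called. The part of that library's low mitochondrial share was not tested.

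CDH1 in SW480 rested on few reads, 2 and 9 with caffeine against 15 and 12 in control. The summed 11 reads had an exact 95% Poisson interval of 5.49 to 19.7, and the 27 control reads one of 17.8 to 39.3. Its log2 change of -1.49 ± 0.44 did not pass (edgeR adjusted p = 0.07), so caffeine brought no detectable rise of CDH1 from its low level in SW480. VIM had 410 and 309 CPM with caffeine and 322 and 396 CPM in control, with overlapping groups (log2 0.00 ± 0.15). EPCAM, ESRP1, ESRP2 and ZEB1 had log2 changes between -0.09 and 0.03, none called.

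**Figure D5:**
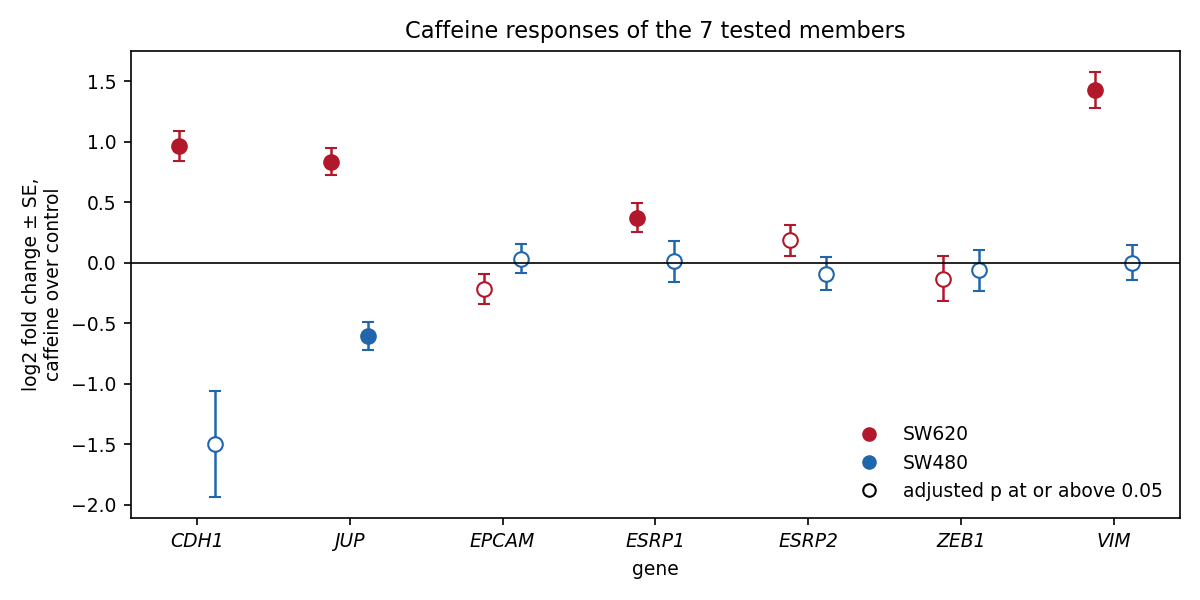
Log2 fold change of caffeine over control with its standard error for the 7 tested members, in SW620 and SW480; filled points passed the adjusted threshold of 0.05. CDH1 and JUP lie above 0 in SW620 and under 0 in SW480, VIM lies above 0 in SW620 and at 0 in SW480, and ESRP1 is the only one of the other 4 with a filled point, in SW620.

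The difference of the 2 responses was tested as an interaction. CDH1, JUP and VIM were called, all with the higher response in SW620, where 6.71% of all tested genes were called (4.24% higher, 2.47% lower). The response of CDH1 was higher in SW620 by 2.46 ± 0.45 on the log2 scale (edgeR adjusted p = 0.00368), that of JUP by 1.44 ± 0.16 (4.56e-05) and that of VIM by 1.43 ± 0.21 (0.000555). The size for CDH1 rests in part on the 11 and 27 reads of SW480 and ran from 2.02 to 3.54 over the alternatives. JUP thus responded in opposite directions, while VIM responded in SW620 without a measurable change in SW480.

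Upstream stretches are shown for the members that responded and have an entry in the RefSeq promoter table of GRCh38.p14, which matched 5 of the 10 members (CDH2, VIM, ZEB1, ZEB2 and JUP). CDH1, ESRP1, ESRP2, GRHL2 and EPCAM were not matched. The first line is the 250 bases before the VIM start, chr10:17227991-17228240 on the plus strand, with its GC box (GGGCGG or CCGCCC, both strands) in capitals. The second is a 30-base stretch before 1 of the 2 JUP starts, chr17:41786007-41786036 on the minus strand, within exons of other JUP transcripts, with 2 E-boxes (CACCTG or CAGGTG, both strands) in capitals.

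VIM upstream: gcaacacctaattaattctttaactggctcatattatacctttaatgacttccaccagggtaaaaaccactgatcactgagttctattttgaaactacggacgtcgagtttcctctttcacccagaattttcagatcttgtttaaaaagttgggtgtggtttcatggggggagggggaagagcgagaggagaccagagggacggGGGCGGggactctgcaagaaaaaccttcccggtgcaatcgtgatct
JUP upstream stretch: tggcccCACCTGccgagCAGGTGagcgcac

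The VIM window held 1 GC box, 46 bases before the start, and neither an E-box nor the AP-1 letters TGANTCA. Over 35116 promoter windows, 42.6% held a GC box, 17.5% an E-box and 6.57% the AP-1 letters within 250 bases before the start. The JUP E-boxes begin 54 and 43 bases before the start, and the window of the other JUP start held 2 GC boxes and no E-box. These matches describe letters only.

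The companion genes that rose with VIM in SW620 under caffeine included matrix genes. Of 13 mesenchymal cytoskeleton and matrix genes, 5 rose and none fell in SW620, where 8.1% of all tested genes rose and 6.25% fell. In SW480 1 of the 13 fell, where 1.93% of all tested genes fell. Fibronectin (FN1) averaged 54.7 ± 4.51 CPM in SW620 with caffeine and 22.4 ± 0.950 CPM in SW620 control (log2 1.29 ± 0.15, edgeR adjusted p = 2.48e-05). AXL, a receptor tyrosine kinase, had 9.05 and 7.25 CPM with caffeine and 2.83 and 3.06 CPM in control (log2 1.46, adjusted p = 8.22e-05). Moesin (MSN, log2 0.53) and fascin (FSCN1, log2 0.38) rose as well. MSN lost its call without SW620 caffeine replicate 2 or either SW620 control (adjusted p up to 0.129), and FSCN1 without any 1 of the 4 SW620 libraries (up to 0.249), with the replicate block or without the filter. None of the 5 was called in SW480.

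FN1 and AXL differed from VIM in their line difference. They were lower in SW620 control than in SW480 control (log2 -2.42 and -2.98), and with caffeine they were lower in SW620 than in SW480 as well (log2 -1.15 and -1.49). VIM began level between the lines and exceeded SW480 with caffeine. SPARC, a matrix protein, was the gene that fell in SW480, with 4.27 ± 1.16 CPM with caffeine and 12.4 ± 1.41 CPM in control (log2 -1.57 ± 0.24, edgeR adjusted p = 0.00229), and this call was lost without SW480 caffeine replicate 2 (0.0834). Fibroblast markers summed to 45.9 to 48.6 CPM in SW620 with caffeine and 37.8 to 40.1 CPM in SW620 control. COL1A1 rose, with 14.9 ± 0.322 CPM and 6.04 ± 0.398 CPM in those groups, LUM averaged 30.7 ± 2.32 CPM and 31.8 ± 2.24 CPM, and COL3A1 was at 0. Endothelial markers summed to 15.5 to 16.1 CPM and 9.72 to 9.82 CPM. The cultures are of established lines, and whether any other cells took part in the VIM response was not tested.

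TGF-beta genes gave a few calls on the side of SW620. Of 13 tested, 2 rose and none fell in SW620, where 8.1% of all tested genes rose, and none rose and 3 fell in SW480, where 1.93% fell. TGFB1 averaged 126 ± 1.91 CPM in SW620 with caffeine and 79.4 ± 5.28 CPM in SW620 control (log2 0.67 ± 0.12, edgeR adjusted p = 0.00100), a call lost without SW620 control replicate 2 (0.0526). SMAD3, a transducer of the pathway, averaged 90.0 ± 6.43 CPM and 53.6 ± 0.274 CPM (log2 0.75 ± 0.13, adjusted p = 0.00111). The inhibitor SMAD7 fell in SW480, with 25.6 ± 1.21 CPM with caffeine and 40.5 ± 2.92 CPM in control (log2 -0.66 ± 0.14, adjusted p = 0.0193), and was not called without SW480 caffeine replicate 2 (0.198) or SW480 control replicate 1 (0.101). The other 2 that fell in SW480, TGFB1 and TGFBR3, lost the call in 11 and 7 alternatives, with adjusted p up to 0.253 without SW480 caffeine replicate 2 and up to 0.156 without SW480 control replicate 1.

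Beside the rise of CDH1 and JUP in SW620, 3 of 11 catenins and junction partners rose and none fell: alpha-catenin (CTNNA1), NECTIN2 and VCL. Over all tested genes 8.1% rose and 6.25% fell in SW620. CTNNA1 had 900 and 938 CPM with caffeine and 621 and 626 CPM in control (log2 0.56 ± 0.12, edgeR adjusted p = 0.00431). NECTIN2 averaged 90.9 ± 7.13 CPM and 65.0 ± 3.47 CPM (log2 0.48 ± 0.13, adjusted p = 0.0182). All 3 calls were lost without either SW620 control, at adjusted p up to 0.0926, 0.218 and 0.257, and those of CTNNA1 and VCL also without SW620 caffeine replicate 2, that of NECTIN2 without SW620 caffeine replicate 1. None of the 11 was called in SW480. Beta-catenin (CTNNB1) had 437 and 518 CPM with caffeine and 439 and 456 CPM in SW620 control, and it was not called.

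Of the 7 other cadherins tested, 1 rose and 2 fell in SW620, where 8.1% of all tested genes rose and 6.25% fell. The one that rose was CDH3, with 14 reads over both caffeine libraries against 2 reads in SW620 control, a ratio of 7.58 with a counting interval of 1.74 to 68.7 (edgeR adjusted p = 0.0490). That call was lost in 6 alternatives, among them each of the 4 SW620 libraries left out (adjusted p up to 0.259, without SW620 caffeine replicate 1). CDH17 fell in SW620 to 22.1 ± 2.05 CPM with caffeine, against 44.2 ± 2.55 CPM in SW620 control (log2 -1.0 ± 0.15, edgeR adjusted p = 0.000234). CDH13, T-cadherin, fell to 43.0 ± 5.32 CPM with caffeine, against 72.7 ± 2.31 CPM (log2 -0.76 ± 0.15, edgeR adjusted p = 0.00233). Whether the calls of CDH17 and CDH13 held under the alternatives is not reported here. Of the 10 desmosome partners of JUP, only PERP was called, and it fell in both lines, by 0.38 in SW620 and by 0.51 in SW480 on the log2 scale. In SW480 1.93% of all tested genes fell. Both calls of PERP were lost in leave-outs, in SW620 without SW620 control replicate 2 among others and in SW480 without SW480 caffeine replicate 2 among others. Of the 10 epithelial transcription factors tested, EHF (log2 0.46 ± 0.12) and KLF5 (0.45) rose and CDX2 fell (log2 -0.65 ± 0.12, adjusted p = 0.00127) in SW620, and none was called in SW480. The call of EHF was lost without SW620 caffeine replicate 2 or either SW620 control (adjusted p up to 0.218), that of KLF5 without any 1 of the 4 SW620 libraries (up to 0.261).

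Around EPCAM, which was not called in either line, 1 of 10 partners and surface proteases rose in SW620 and 2 fell, and in SW480 none rose and 3 fell. Over all tested genes 8.1% rose and 6.25% fell in SW620, and 1.67% rose and 1.93% fell in SW480. ADAM17, a sheddase that cleaves EPCAM, had 47.7 and 52.2 CPM in SW620 with caffeine and 27.8 and 26.6 CPM in SW620 control (log2 0.88 ± 0.14, edgeR adjusted p = 0.000424). Of the 12 polarity and trafficking genes that ZEB factors repress, 2 rose and none fell in SW620, and in SW480 1 fell. PRSS22, a serine protease, had 6.91 and 4.58 CPM with caffeine and 2.43 and 2.26 CPM in SW620 control (log2 1.28 ± 0.24, adjusted p = 0.00194). PARD6B, a polarity scaffold, was the one that fell in SW480, with 15.1 and 13.9 CPM with caffeine and 24.3 and 24.8 CPM in SW480 control (log2 -0.77 ± 0.14, adjusted p = 0.00810), and it was not called without SW480 caffeine replicate 2 (0.107). None of the 10 genes whose transcripts ESRP proteins splice was called in either line, beside the small ESRP1 change.

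Of the other EMT-inducing factors, 6 were tested, and in SW620 1 rose and 0 fell, where 8.1% of all tested genes rose and 6.25% fell. PRRX1, 1 of the 6, had at most 1 read in any SW620 library, too few to show a change. SNAI3 rose in SW620, with 2.86 ± 0.0858 CPM with caffeine and 1.33 ± 0.116 CPM in control (log2 1.10 ± 0.31, edgeR adjusted p = 0.0235), a call lost without any 1 of the 4 SW620 libraries (up to 0.198) and with the Wald test of DESeq2. SNAI1 averaged 22.9 ± 0.0546 CPM with caffeine and 29.2 ± 0.592 CPM in control. No gene of this group was called in SW480.

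By the pattern over all 8 libraries, the tested gene closest to CDH1 among the 12464 compared was LINC01559, followed by POF1B, an actin-binding protein of epithelial junctions, and PLOD2, a collagen lysyl hydroxylase, with root mean square differences of 0.44, 0.52 and 0.56 in centred log2 CPM. POF1B averaged 99.6 CPM in SW620 with caffeine, 61.3 CPM in SW620 control, 0 CPM in SW480 with caffeine and 0.0303 CPM in SW480 control. The 3 closest to VIM were SEC24D, a coat protein of secretory vesicles, ALDOC, an aldolase, and CCDC110, with differences of 0.16 to 0.17. ALDOC averaged 31.3 CPM in SW620 with caffeine, 10.2 CPM in SW620 control, 9.19 CPM in SW480 with caffeine and 11.5 CPM in SW480 control. The 3 closest to ZEB1 were SPATA13, TTI1 and PURB at 0.087 to 0.10, each about as much lower in SW620 as ZEB1. Likeness over 8 libraries describes shape only, and these libraries come from 2 lines, so a gene that differs between the lines as the member does is close to it by that alone.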

How the data were processed

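The authors deposited 1 file per library with raw read counts per Ensembl gene. Per the submitters' processing notes, Trim Galore, STAR 2.7.3a, featureCounts 2.0.5 and hg38 were used. Per the labels, single-end reads of 75 bases came from a directional poly-A kit on a NextSeq 500. Strand setting and annotation release are not given in the sources used here. The 12 assignment totals of each file were left out.

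Members and companion lists were chosen with earlier results of these data known. edgeR 4.0.16 in R 4.3.3 was run on the counts of all 8 libraries in 1 fit with 4 group means (filterByExpr, TMM, robust quasi-likelihood F test, Benjamini-Hochberg over 17671 genes, threshold 0.05); it was tested on simulated data. All members are named; of each of 16 other lists up to 3 called genes by adjusted p for the untreated lines and up to 2 for caffeine, further ones after their values were seen. Coordinates and overlaps came from GENCODE 29, which holds 58225 of the 62649 IDs. Alternatives were DESeq2 1.42.0 (size factors, Wald test), limma-voom 3.58.1, no filter, a replicate block, fits of only the groups compared, and each library left out. Among the genes named by that rule, SRSF1 shares 56.6% and CLDN7 10.8% of its exon bases with another gene on its own strand. With genes on the opposite strand, MARVELD3 shares 18.1%, ADAM17 13.6%, PRSS8 11.9% and VCL 11.1%. Reads from those genes could enter the counts if strand was ignored. Where a group had 1 to 3 reads, the ratio carries an exact 95% counting interval. Results for some genes of the companion lists are not reported here.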

Additional observations from a re-analysis of the deposited data

Results flagged for a closer look

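The responses to caffeine that differed between the lines, each by the interaction test of the edgeR fit, were the ones picked out for a closer look. Among the members, these were CDH1 at 2.46, JUP at 1.44 and VIM at 1.43, each as the SW620 response minus the SW480 response on the log2 scale. CDH1 and JUP had estimates above 0 in SW620 and under 0 in SW480, and only that of JUP passed the test in SW480.

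Matrix and cytoskeleton genes with a higher response in SW620 were AXL at 1.50, FN1 at 1.26 and MSN at 0.68. TGF-beta genes were the ligand TGFB1 at 1.09, the transducer SMAD3 at 1.08 and the co-receptor TGFBR3 at 1.04.

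Junction and polarity genes were CTNNA1 at 0.73, VCL at 0.74 and PARD6B at 0.98, and the serine protease PRSS22 differed by 1.36. The splicing regulators MBNL2 and QKI differed by 1.09 and 0.92, the sheddase ADAM17, which cleaves EPCAM, by 0.86, and the endothelial marker VWF by 1.75. The 3 members, AXL, FN1, TGFB1 and SMAD3 kept the call under every alternative run. The others lost it in some of the alternatives, MSN in 6, QKI in 5, VCL and PRSS22 in 4 and PARD6B in 2. MBNL2, CTNNA1, ADAM17, TGFBR3 and VWF lost it in 3. Leaving out SW620 control replicate 1 was among those alternatives for each of these 10 genes. All genes picked out here had the higher response in SW620, beside 4.24% of all tested genes on that side and 2.47% on the other.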

How the results depend on the processing

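Of 291 alternative values for the 21 called results of members, 284 kept direction and call and 7 lost the call, 6 for ESRP1 in SW620 and 1 for JUP in SW480. Of 2739 values for 197 called results of companion genes, 226 lost the call and none reversed. Without the filter on low counts 1073 genes were called for caffeine in SW480, beside 636, and with only the SW620 libraries 4545 for caffeine in SW620, beside 2537.

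Same-numbered libraries did not deviate together (correlations of 0.0105 to 0.0265), so the numbers do not pair them. With the replicate block, 11397 and 11477 genes were called between the untreated and the caffeine-treated lines, 590 for caffeine in SW480, 2249 in SW620 and 1087 for the difference of responses, beside 11591, 11722, 636, 2537 and 1185. The members called were then 6, 7, 1, 3 and 3, with 4 in SW620 without the block.

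With 1 library left out at a time, caffeine in SW480 gave 50 to 1367 calls and 0 to 1 members. The count was 50 and 1052 when its caffeine replicate 2 or 1 was absent, 180 and 1367 for its control replicate 1 or 2, and 370 and 381 for SW620 control replicate 1 or 2. Caffeine in SW620 gave 787 to 3225 calls, with 787 and 874 in the absence of its control replicate 2 or 1, and 1157 and 1362 of its caffeine replicate 2 or 1. The difference gave 421 to 2156 calls, with 421, 437, 585 and 763 for those 4 SW620 libraries in the same order, 668 for SW480 caffeine replicate 2 and 2156 for SW480 control replicate 2. The libraries of a group differed beyond counting error by unequal amounts. Their chi-square per degree of freedom was 41.8 in SW480 with caffeine and 21.1 in SW480 control. It was 10.6 in SW620 with caffeine and 2.96 in SW620 control. All tests share 1 spread over the 4 groups, so adjusted p can be too low in SW480 and too high in SW620. A group left with 1 library is also assumed to vary like the others, which these values go against.

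Uncalled log2 values near 0 changed sign over these leave-outs. VIM ran from -0.20 to 0.076 between the untreated lines and from -0.22 to 0.19 for caffeine in SW480, ZEB1 from -0.33 to 0.18 in SW480 and from -0.31 to 0.20 for the difference, ESRP1 from -0.097 to 0.12 and EPCAM from -0.087 to 0.14 in SW480. For caffeine in SW480, VIM was -0.020 with DESeq2 size factors, -0.023 with the Wald test of DESeq2, -0.0060 with limma-voom and -0.0073 with the replicate block, and ESRP1 was -0.0068 with DESeq2 size factors and -0.011 with the Wald test. The cause was not tested.

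The neighbours of CDH1 higher in SW620 numbered 27 to 34 under alternatives added after the data were seen. Depth limits CDH2, ZEB2 and GRHL2, and CDH1 in SW480.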
